A study of Homo sapiens with 8 samples.

Results

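Long noncoding RNAs are transcripts that act without being translated. The 8 examined here are NEAT1, MALAT1, TUG1, HOTAIR, NORAD, MEG3, OIP5-AS1 and KCNQ1OT1, chosen by name. NEAT1 is a reported target of AUF1, an RNA-binding protein that HNRNPD encodes and that is known to bind AU-rich elements. Of the 38751 genes to which transcripts of 300 nt or more could be assigned in the deposited tables, 6 were these RNAs. The other 2, NORAD and KCNQ1OT1, had no annotated transcript in the tables and were read from fragments assembled within their extents.

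The libraries came from total RNA of HEK293, an established human embryonic kidney line. Cells were given 1 of 8 agents by transfection: a control siRNA, the AUF1 siRNA, the empty vector, AUF1 p37, p40, p42 or p45 with a Flag tag, or all of these isoforms at once (called all isoforms). The isoforms arise from HNRNPD by alternative splicing, and the overexpressing cells kept their own HNRNPD gene. Each group held 1 library, so no test was possible, and no difference has a replicate check. The time after transfection is not given in the labels.

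NEAT1 is the RNA scaffold of the paraspeckle, a nuclear body built on its long form by proteins such as NONO and SFPQ. MALAT1 lies in nuclear speckles, where splicing factors gather. RNase P cuts MALAT1 and the long form of NEAT1 at the 3′ end instead of the usual polyadenylation. HOTAIR, MEG3 and KCNQ1OT1 are known for their links to chromatin regulators such as PRC2, and KCNQ1OT1 silences neighbouring imprinted genes. NORAD, which binds PUMILIO proteins, and OIP5-AS1 (also called cyrano) are found largely in the cytoplasm. Whole-cell RNA was sequenced, so the place of the RNA in the cell was not measured.

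Sequences are shown for the RNAs whose known protein partners read short motifs. The motif ATTTA is the core of AU-rich elements, and TGTANATA is the PUMILIO element. The longest transcript of each gene in GENCODE release 29 was searched on its own strand, with overlapping matches counted. NEAT1 (ENST00000501122, 22743 nt) held 46 ATTTA matches or 2.02 per kb, MALAT1 (ENST00000534336, 8708 nt) 22 or 2.53 per kb, and OIP5-AS1 (ENST00000500949, 8829 nt) 21 or 2.38 per kb. The median over 14384 long noncoding RNA genes was 0.97 per kb. The densities of NEAT1, MALAT1 and OIP5-AS1 were at or above those of 72.9%, 81.2% and 79.1% of these genes. TUG1 held 1.20 per kb, HOTAIR 1.65, NORAD 2.43, KCNQ1OT1 1.37 and MEG3 0.54, so MEG3 alone of the 8 lay below that median. The reverse complement TAAAT was counted apart, at 1.93 per kb in NEAT1 and 2.41 in MALAT1, with a median of 1.28 over the same genes. The longer element TTATTTATT, which contains ATTTA, occurred 4 times in OIP5-AS1 and once each in NEAT1, MALAT1 and MEG3. NORAD (ENST00000565493, 5339 nt) held 15 TGTANATA matches, 2.81 per kb, a density at or above that of 99.8% of those genes.

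The 100-base windows richest in these motifs are printed below for NEAT1, MALAT1 and NORAD, 5′ to 3′ on the transcript, with the motif matches in capitals. The NEAT1 and MALAT1 windows show ATTTA and the NORAD window TGTANATA.
NEAT1, GRCh38 chr11:65433966-65434065, plus strand: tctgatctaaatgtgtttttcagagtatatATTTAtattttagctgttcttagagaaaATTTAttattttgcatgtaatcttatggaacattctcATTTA
MALAT1, GRCh38 chr11:65500012-65500111, plus strand: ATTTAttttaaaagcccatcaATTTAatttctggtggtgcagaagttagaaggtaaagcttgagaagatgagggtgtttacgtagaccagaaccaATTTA
NORAD, GRCh38 chr20:36049503-36049602, minus strand: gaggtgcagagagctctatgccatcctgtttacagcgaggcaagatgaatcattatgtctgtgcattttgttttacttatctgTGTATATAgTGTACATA
The NEAT1 and MALAT1 windows each held 3 ATTTA matches, a number reached by 0.230% of 177683 consecutive windows of this length in the long noncoding RNAs, of which 11.9% held at least 1. The NORAD window held 2 TGTANATA matches, against 0.0355% of windows with as many and 0.850% with at least 1. Each printed window was the richest in its transcript, whereas those windows were laid end to end. A match describes the letters only, and AUF1 binding was not measured in these libraries.

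The values are FPKM, fragments normalised to transcript length in kb and to all mapped fragments of the library. They were summed over a gene's transcripts of 300 nt or more and divided by a library factor of 0.932 to 1.065. The deposited lower and upper bounds, summed in the same way, cover estimation within a library only. HNRNPD stood at 297.2 scaled FPKM with the control siRNA and 167.0 with the AUF1 siRNA. It was 312.7 with the empty vector and 3006 to 4890 in the 5 overexpression libraries. Relative depth, as deposited coverage per FPKM, ran from 0.213 with all isoforms to 0.345 with p42, and was 0.246 and 0.322 in the control and AUF1 siRNA libraries. The AUF1 siRNA library also held the most assembled transcripts, 11813, and the control siRNA library the fewest, 7198. The HEK293 markers NEFM, INA, KRT8, KRT18, PAX2 and LIN28B were above 0 in every library and summed to 95.0 to 113.9, and no value was found for NEFL. The fibroblast list of 6 genes summed to 1.999 to 6.69, with 3 of them, DCN, LUM and POSTN, at 0 in some libraries. A cervical carcinoma list of 6 genes summed to 111.1 to 284.9, of which CDKN2A made up 90.3 to 251.9, and KRT5 and KRT17 were at 0 in some libraries.

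A gene was compared when the mean of the libraries was at least 5 scaled FPKM, both were above 0 and no transcript had a failed status. It was called at 2-fold, a log2 ratio of 1 in size on the scale log2(scaled FPKM + 1). NEAT1, MALAT1, TUG1, HOTAIR and OIP5-AS1 met the minimum in all comparisons, and MEG3 met it in none. None of these 5 passed 2-fold in any of the 6 comparisons. HNRNPD, the siRNA target, was also under 2-fold with the AUF1 siRNA, at -0.83 or 56.2% of the control siRNA level. Over all genes, 13.3% of 10660 passed with the AUF1 siRNA against the control siRNA. Against the empty vector, 5.64% and 6.78% passed for p37 and p40, 5.66% and 8.17% for p42 and p45, and 6.24% for all isoforms. The control siRNA library against the empty vector, with no change to AUF1 in either, gave 7.68%. Read against these shares, 0 of 5 is not a result about these RNAs. All 5 overexpression comparisons use the same empty vector library, so its own value enters each of them.

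Separation of the summed bounds was a second description. With the AUF1 siRNA, 2 of the 5, NEAT1 and TUG1, had bounds that did not overlap those of the control siRNA, as did 21.6% of all genes compared. NEAT1 was the 1 such RNA with p37, against 8.53% of genes, and with p40, against 10.2%. There was none with p42 (10.1% of genes), p45 (10.9%) or all isoforms (7.84%), and none between the controls (13%). Across the 8 libraries, the highest level over the lowest was 1.55 for NEAT1, 1.33 for MALAT1, 1.505 for TUG1, 1.27 for OIP5-AS1, 2.17 for HOTAIR and 3.49 for MEG3. The median was 1.76 for the 10208 genes with a mean of 5 or more and above 0 in all libraries. NEAT1, MALAT1, TUG1 and OIP5-AS1 varied less than that median gene and HOTAIR more. MEG3, with a mean of 3.82 scaled FPKM, was outside that set, so its range of low values is not set against it.

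NEAT1 (ENSG00000245532, hg19 chromosome 11, 65190245 to 65213011) was highest in the AUF1 siRNA library and lowest in the control siRNA library. Its levels were 12.1 scaled FPKM in the control siRNA library and 18.8 in the AUF1 siRNA library. Beside 15.1 for the empty vector, the values for p37 and p40 were 18.7 and 18.8, those for p42 and p45 14.9 and 14.3, and that for all isoforms 16.4. The AUF1 siRNA, p40 and p37 libraries overlapped in their bounds, and the bounds of the p37 library (17.95 to 19.36) lay above those of the all-isoform library (15.6 to 17.2). Below that, every neighbour in the order overlapped. By FPKM, the AUF1 siRNA, p37 and p40 libraries stood together at the top of the range of NEAT1 levels. The bounds with p42 and p45 overlapped those of the empty vector. The assembled NEAT1 transcript was shortest with p40 (20326 nt) and p37 (21619 nt), and FPKM divides by length. Totals as scaled FPKM times length in kb were 425.9 with the AUF1 siRNA, 403.4 with p37 and 381.1 with p40. These libraries were less close on that scale. The all-isoform total was 369.4 and that of the empty vector 341.1. Log2 ratios of these totals to the empty vector were 0.24 for p37, 0.16 for p40 and 0.12 for all isoforms.

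With the AUF1 siRNA, NEAT1 had a log2 ratio of 0.59 to the control siRNA, or 1.51-fold, and 0.24 to 1.01 when taken from the summed bounds. Of the genes compared, 82.5% lay below it. Against the empty vector the same library gave 0.30, where the controls differed by -0.30, control siRNA minus empty vector. The overexpression ratios were 0.28 and 0.29 for p37 and p40, -0.02 and -0.08 for p42 and p45, and 0.11 for all isoforms. Taken from the bounds, p37 lay between 0.17 and 0.40 and p40 between 0.17 and 0.41. Had the control siRNA served as their control, all 5 would have been above 0, at 0.58, 0.59, 0.28, 0.22 and 0.41. The 3 libraries with high NEAT1 had a coverage per FPKM of 0.322, 0.319 and 0.262, beside 0.213 to 0.345 over all 8, and the part of depth in these levels was not tested. In bulk RNA, fewer cells with a transcript and less of it per cell cannot be told apart.

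The signal was assigned to the long form, the one that builds paraspeckles. A transcript of 20326 to 22594 nt, assembled from the reads over the whole gene, held 100% of NEAT1 FPKM in 6 libraries, 84.1% with the control siRNA and 79.0% with the AUF1 siRNA. The rest in those 2 libraries was on the annotated long form ENST00000501122, at 1.80 and 3.81 FPKM with the status LOWDATA, Cufflinks' mark for a locus too complex or too shallow to estimate. The short annotated form, ENST00000499732 (1745 nt in the tables, 3441 nt in GENCODE release 29), was listed at 0 with the status LOWDATA in every library. It overlaps the long one, and the tables give no measure of the balance between these forms.

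MALAT1 (ENSG00000251562, hg19 chromosome 11, 65265233 to 65273940) was the most abundant per length of the 6 RNAs with annotated transcripts. It stood at 175.6 scaled FPKM in the control siRNA library and 133.7 in the AUF1 siRNA library. The empty vector library held 168.8, p37 and p40 177.7 and 147.0, p42 and p45 143.6 and 158.7, and the all-isoform library 157.5. The lowest was the AUF1 siRNA library and the highest the p37 library. Log2 ratios were -0.39 with the AUF1 siRNA, 0.07 and -0.20 for p37 and p40, -0.23 and -0.09 for p42 and p45, -0.10 for all isoforms, and 0.06 between the controls. These values are uncertain, since all MALAT1 FPKM had the status LOWDATA in 7 libraries and 78.2% of it with p45. The summed bounds ran from 0 to between 1044 and 1623 in those 7, and from 149.0 to 168.4 with p45.

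The MALAT1 sum came from ENST00000544868 (4585 nt in the tables), at 95.8 to 143.3 FPKM, and an assembled transcript of 7099 to 8465 nt, at 19.8 to 39.4 FPKM. The full-length ENST00000534336 was above 0 with p45 alone, at 14.3 FPKM. A value with narrower bounds came from a transcript inside the gene, ENST00000544135 (1589 nt, hg19 chromosome 11, 65269505 to 65271093). It lies wholly within ENST00000544868 (65266516 to 65271100), so it is not a separate measure of MALAT1. How reads were divided between these overlapping transcripts was not tested. The tables list ENST00000544135 under another gene, ENSG00000257018, that GENCODE release 29 does not hold. Its status was OK throughout, and it was not part of the sum. It stood at 162.3 scaled FPKM under the control siRNA and 112.6 under the AUF1 siRNA. It was 140.5 for the empty vector, 156.4 and 99.5 for p37 and p40, 111.6 and 114.9 for p42 and p45, and 99.8 for all isoforms. The bounds with the AUF1 siRNA, 105.5 to 119.8, lay below those with the control siRNA, 151.4 to 173.1, a log2 ratio of -0.52. With p40, p42, p45 and all isoforms its bounds likewise lay below those of the empty vector (131.2 to 149.8), with log2 ratios of -0.49, -0.33, -0.29 and -0.49. With p37 it was 0.15. The controls separated by the same rule, with the control siRNA bounds wholly above those of the empty vector and a log2 ratio of 0.21. The shares of genes given above are for gene sums. The share of single transcripts that separate was not counted, so these separations have no background beside them. The inner transcript was highest with the control siRNA and lowest with p40 and all isoforms, whereas the MALAT1 sum was highest with p37 and lowest with the AUF1 siRNA.

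TUG1 (ENSG00000253352, hg19 chromosome 22, 31365643 to 31374831), a spliced RNA that shares a bidirectional promoter with a neighbour, showed the opposite order to NEAT1 in the siRNA pair. Its levels were 42.5 scaled FPKM in the control siRNA library and 28.2 in the AUF1 siRNA library. Beside 34.0 for the empty vector, the values for p37 and p40 were 36.97 and 34.5, those for p42 and p45 38.4 and 37.5, and that for all isoforms 35.1. The control siRNA library was the highest and the AUF1 siRNA library the lowest, and every neighbour in the order overlapped in its bounds. The log2 ratio with the AUF1 siRNA was -0.57, with -1.05 to -0.09 from the bounds, and 11.3% of genes lay below it. Against the empty vector the AUF1 siRNA library gave -0.26, since the control siRNA lay 0.31 above the empty vector. Ratios with overexpression were small, 0.12 and 0.02 for p37 and p40, 0.17 and 0.14 for p42 and p45, and 0.04 for all isoforms.

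Among annotated TUG1 transcripts, ENST00000540687 (2744 nt) differed most in the siRNA pair. It stood at 13.9 FPKM with the control siRNA (bounds 11.5 to 16.4) and 4.97 with the AUF1 siRNA (bounds 3.75 to 6.20). The other 6 libraries held 11.2 to 15.7 FPKM, the lowest of their lower bounds being 8.90. The bounds with the AUF1 siRNA thus lay below those of all 7 others. ENST00000540687 was picked for its difference, and the share of single transcripts that separate was not counted. Among gene sums, 21.6% separated in the siRNA pair. In the AUF1 siRNA library alone the tables list an assembled transcript of 3281 nt, at 5.29 FPKM, which overlaps ENST00000540687. The part of this transcript in the difference was not tested. The long form ENST00000521091 (6477 nt in the tables) ran from 4.17 to 15.8 FPKM and was lowest with all isoforms and p40, where assembled transcripts of 6377 and 6588 nt held 9.67 and 6.37 FPKM. ENST00000519077 (4892 nt in the tables) was at 7.41 to 12.9 FPKM in 7 libraries and listed at 0 with p45, where an assembled transcript of 3713 nt held 14.9 FPKM. Counting annotated transcripts alone, the TUG1 ratio with p45 was -0.60 instead of 0.14.

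HOTAIR (ENSG00000228630, hg19 chromosome 12, 54356092 to 54368740), an antisense RNA of the HOXC cluster, varied more. It stood at 9.85 scaled FPKM in the control siRNA library and 17.6 in the AUF1 siRNA library. The empty vector library held 17.0, p37 and p40 14.3 and 9.68, p42 and p45 11.2 and 11.7, and the all-isoform library 21.0. Highest was the all-isoform library and lowest p40, and all neighbours in the order overlapped in their bounds. The log2 ratios were 0.78 with the AUF1 siRNA, -0.24 and -0.76 for p37 and p40, -0.56 and -0.50 for p42 and p45, and 0.29 for all isoforms. The controls differed as much from each other, by -0.73, and the AUF1 siRNA library stood at 0.05 from the empty vector.

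The makeup of HOTAIR also differed between libraries. ENST00000439545 (560 nt, LOWDATA) held 6.41, 12.1 and 10.01 FPKM with the AUF1 siRNA, the empty vector and all isoforms, the 3 libraries of highest HOTAIR, and was listed at 0 in the others. ENST00000455246 (918 nt) held 5.05 to 8.53 FPKM in 6 libraries and was listed at 0 with the empty vector and p45. Assembled forms held the rest, 22.8% to 100% of HOTAIR FPKM. Without LOWDATA transcripts the HOTAIR ratio with the AUF1 siRNA fell from 0.78 to 0.13. In the same setting that with p37 became 1.20, those with p40, p42 and p45 became 0.69, 0.88 and 0.94, and that with all isoforms 0.92, so the direction with p37, p40, p42 and p45 depends on the LOWDATA forms. With annotated transcripts alone HOTAIR passed 2-fold with the AUF1 siRNA, at 1.06, and with p40, at -1.05. Reads of HOTAIR and of genes on the other strand cannot be told apart, since the sources used here do not give strand.

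MEG3 (ENSG00000214548, hg19 chromosome 14, 101292455 to 101327358), the maternally expressed RNA of the DLK1 imprinted region, was too low for a comparison. It stood at 1.73 scaled FPKM under the control siRNA and 6.04 under the AUF1 siRNA. It was 5.24 for the empty vector, 2.75 and 3.82 for p37 and p40, 3.36 and 4.19 for p42 and p45, and 3.44 for all isoforms. The siRNA pair were again the lowest and the highest libraries, with summed bounds of 0 to 3.74 and 2.39 to 9.70 that overlapped. Their log2 ratio was 1.37, with -0.48 to 3.42 from the bounds. Of its 25 annotated transcripts, ENST00000524131 (721 nt, LOWDATA) was above 0 in 7 libraries, at 0.55 to 3.75 FPKM. An assembled 807-nt transcript held 1.62 to 3.86 FPKM in 4 libraries. The protein-coding neighbour DLK1 stood at 0.68 and 0.21 scaled FPKM in the AUF1 and control siRNA libraries, and the noncoding neighbour MEG8 at 2.68 and 0.71.

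OIP5-AS1 (ENSG00000247556, hg19 chromosome 15, 41576203 to 41601901) had the narrowest range of gene sums of the 6. Its levels were 24.98 scaled FPKM in the control siRNA library and 23.0 in the AUF1 siRNA library. Beside 25.1 for the empty vector, the values for p37 and p40 were 26.2 and 24.2, those for p42 and p45 21.7 and 22.3, and that for all isoforms 20.6. All neighbours overlapped in their bounds. The log2 ratio with the AUF1 siRNA was -0.11, with -0.63 to 0.42 from the bounds, and the overexpression ratios ran from -0.27 with all isoforms to 0.06 with p37. ENST00000501665 (1350 nt in the tables) held 19.1 to 22.1 FPKM and ENST00000500949 (4265 nt in the tables) 1.82 to 4.63 FPKM. The latter is 8829 nt long in GENCODE release 29, and 1 to 4 further assembled fragments per library lay in the extent of the gene outside the sum. With these included the total over the gene, as scaled FPKM times length in kb, was 77.8 with the control siRNA and 45.5 to 64.2 in the other libraries. On this total the range was wider, and the log2 ratio with the AUF1 siRNA was -0.58 instead of -0.11, with 0.56 between the controls. The part inside the sum was 40.1 with the control siRNA and 40.2 with the AUF1 siRNA, so their difference lay in the fragments outside it. The highest single value over the gene was 58.6 FPKM with the control siRNA and 19.1 to 22.1 in the other libraries. The covered length ran from 6573 to 8519 nt.

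NORAD and KCNQ1OT1 were located by their order between flanking transcripts, because the genome given for this work was of another build than the files. The gap between the flanking transcripts had the same length in the files and in GENCODE release 29, 41740 nt for NORAD and 198449 nt for KCNQ1OT1. Within these gaps the tables held 27 and 20 assembled fragments, once transcripts placed with another gene were left out. Every one of the fragments kept fell inside the extent that GENCODE gives the gene, allowing 500 nt at either end. These extents cover 5339 and 91667 nt.

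NORAD fragments formed 6 stretches on hg19 chromosome 20. The stretch nearest the 3′ end of the RNA (34633551 to 34634746) held fragments in all 8 libraries, and that at the 5′ end (34638138 to 34638884) in 6. Their total, as scaled FPKM times kb, was 41.5 in the control siRNA library and 14.0 in the AUF1 siRNA library. The empty vector library held 32.4, p37 and p40 22.4 and 36.8, p42 and p45 42.7 and 28.5, and the all-isoform library 5.55. The covered length was 1925, 1681, 978, 1622, 1313, 3072, 425 and 511 nt in the same order, and the mean over it was 21.6, 8.32, 33.1, 13.8, 28.0, 13.9, 67.2 and 10.9 scaled FPKM. The lowest totals, with all isoforms and the AUF1 siRNA, also had the lowest means over what was covered. Of the 27 fragments, 11 were under 300 nt, and single fragments ranged from 6.73 to 96.1 FPKM. Totals and covered lengths did not follow one order, since p45 covered the least and its total was above that of the AUF1 siRNA library.

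KCNQ1OT1 fragments totalled 5.99 scaled FPKM times kb under the control siRNA and 20.8 under the AUF1 siRNA. The total was 12.0 for the empty vector, 15.1 and 10.9 for p37 and p40, 19.2 and 3.76 for p42 and p45, and 13.7 for all isoforms. The covered length was 993, 3500, 1674, 3006, 1602, 3863, 788 and 1881 nt, and the mean over it varied little, from 4.77 to 7.28 scaled FPKM. Libraries with a higher total thus had more covered length, except that AUF1 siRNA and p42 change places. The 3 with the most covered length, p42, AUF1 siRNA and p37, also had the highest coverage per FPKM. The part of depth in these totals was not tested.

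Of the 20 fragments, 19 lay in the first 23325 nt from the 5′ end of the RNA, in 6 stretches, and 1 farther in. The stretch from 2703592 to 2705197 on hg19 chromosome 11 held a fragment in 7 libraries, and that nearest the 5′ end, 2718880 to 2720270, in 6. KCNQ1OT1 lies antisense within KCNQ1, a potassium channel gene, and without strand its fragments cannot be told apart from unspliced KCNQ1 RNA. KCNQ1 itself stood at 11.1 scaled FPKM with the control siRNA and 19.6 with the AUF1 siRNA, a log2 ratio of 0.76. Both thus were higher in the AUF1 siRNA library.

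Genes that work with these RNAs were read from 7 lists, by the same 2-fold rule. Over all genes compared, 13.3% passed with the AUF1 siRNA, 1069 higher and 346 lower of 10660. The share was 5.64% to 8.17% in the overexpression comparisons and 7.68% between the controls. The lists are small, and their counts were not tested against these shares. Of 20 paraspeckle proteins 17 were compared with the AUF1 siRNA, and none was called higher and 1 lower. The rule left out PSPC1 and RBM14, at 0 with the control siRNA and at 13.7 and 10.4 scaled FPKM with the AUF1 siRNA. Both were also at 0 with the empty vector, so they enter none of the counts and medians of this list. The median log2 ratio was -0.34, against -0.04 for all genes compared, and 13 of the 17 were below 0. The called gene was SMARCA4, a chromatin remodelling ATPase, at 36.3 against 128.8 scaled FPKM (-1.80). When transcripts were weighted by length it gave -0.36, so much of its ratio rested on short transcripts. HNRNPA1 and HNRNPR, RNA-binding proteins, were next lowest at -0.57 each, and MATR3, a nuclear matrix protein, was highest at 0.49. Length-weighted, HNRNPA1 and HNRNPR were at -0.49 and -0.55, and MATR3 was at -0.006. The list's median was -0.30, -0.21 and -0.25 with FPKM as deposited, with 75th percentile scaling and with length weighting. For all genes the median was -0.0002 with FPKM as deposited and 0.09 with 75th percentile scaling. In the overexpression comparisons its medians were -0.06 and -0.10 for p37 and p40, 0.04 and -0.12 for p42 and p45, and 0.05 for all isoforms. SMARCA4 was the 1 call there, at 1.96 with all isoforms, and it was also called between the controls, at 1.45.

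Nuclear speckle proteins, all 24 compared, had 0 higher and 2 lower with the AUF1 siRNA, with a median of -0.21 and 18 of 24 below 0. SF3B1, a core subunit of the splicing complex that binds the branch point, stood at 23.8 against 92.2 scaled FPKM (-1.91), and BCLAF1, a regulator of splicing and transcription, at 101.8 against 243.1 (-1.25). Length-weighted, these were -0.51 and -0.52, under 2-fold. U2AF2, which binds the polypyrimidine tract before an exon, was highest at 0.53. With 75th percentile scaling the list median was -0.07, and that of all genes moved to 0.09. The overexpression comparisons held 1 call, SRSF6, a splicing factor, at -1.06 with p45, and list medians of -0.21 to -0.08. Between the controls the median was much the same, -0.17, with 16 of 24 below 0.

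For RNase P and the tRNA 3′ nuclease ELAC2, 10 of 12 genes were compared and none was called with the AUF1 siRNA. The median was -0.09, and it was 0.05 with 75th percentile scaling, against 0.09 for all genes under that scaling. POP4, an RNase P protein, was lowest at -0.76, 14.2 against 24.8 scaled FPKM. ELAC2 was called lower in 4 overexpression comparisons, with p37 (-1.06), p42 (-1.40), p45 (-1.20) and all isoforms (-1.32). It stood at 36.1 scaled FPKM with the empty vector and 13.0 to 16.7 in those 4 libraries, and the control siRNA was as low, at 16.1 (-1.12). POP1, the largest protein of RNase P, was called lower with p40, p42 and all isoforms (-1.03, -1.52 and -1.17), and its partner POP5 was called higher with p40 (1.19). Length-weighted, none of these ratios reached 2-fold.

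PRC2 and the LSD1-CoREST complex, known partners of HOTAIR, had 1 of 12 called with the AUF1 siRNA, with a median of -0.27. This was RBBP4, a histone-binding subunit, at 24.2 against 73.1 scaled FPKM (-1.56, length-weighted -0.71). EED, a core PRC2 subunit, was highest at 0.88, and length-weighted it passed 2-fold, at 1.15. Between the controls EED stood at -0.65, length-weighted -1.05. SUZ12, another core subunit, was called higher with p37, p40 and p45 (1.05, 1.28 and 1.27) and RBBP7 with p42, p45 and all isoforms (1.84, 1.58 and 2.07). Both were also higher with the control siRNA than with the empty vector, by 1.42 and 2.35. SUZ12 stood at 4.54 scaled FPKM with the empty vector and 4.34 with p42, and RBBP7 at 85.8 with the empty vector and lower still with p37 and p40, at 57.5 and 47.3. RBBP4 was called lower with p37 and p45 (-1.06 and -1.29). PHF19, a PRC2 accessory factor, was called lower with p37, p42 and all isoforms (-1.52, -1.38 and -1.12). Length-weighted, the SUZ12 ratios stayed past 2-fold, at 1.05, 1.299 and 1.292, and those of RBBP7 (0.31 to 0.39), RBBP4 (-0.34 and -0.55) and PHF19 (-0.34 to -0.19) did not.

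Among 5 protein partners of NORAD and OIP5-AS1, none was called with the AUF1 siRNA, and the median was -0.22. PUM2, a PUMILIO protein, stood at -0.35, and ELAVL1 (HuR), which binds OIP5-AS1, at 0.05.

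Of 26 genes beside or in the region of the 8 RNAs, 15 could be compared with the AUF1 siRNA, and 2 were called higher and 1 lower. MORC2 (5.89 to 18.7 scaled FPKM, 1.52) and OSBP2 (17.7 to 37.4, 1.04) neighbour TUG1, which was lower in that library, and EPB41L1 (9.25 to 3.76, -1.11) neighbours NORAD. MORC2 stood 1.91 lower in the control siRNA than in the empty vector library, at 5.89 and 24.96. Length-weighted, the ratios were 0.50, 0.85 and 0.11. Next to NEAT1 and MALAT1, LTBP3, FRMD8 and SLC25A45 had log2 ratios of 0.79, -0.50 and -0.66. With overexpression, SLC25A45 was called higher with p37, p40, p42 and all isoforms (1.04 to 1.44) and FRMD8 with p42 (2.54). SLC25A45 was also higher with the control siRNA than with the empty vector, by 1.59. SLC22A18, an imprinted neighbour of KCNQ1OT1, was called higher with p37 (1.07). Called lower were MORC2 with p37, p40 and p42 (-1.76, -1.42 and -1.48) and EPB41L1 with p42 (-1.43). RBM39, a splicing factor gene listed for the wider NORAD region, was called lower with p37, p42, p45 and all isoforms (-1.09, -1.80, -2.05 and -1.09). It was also called lower with the control siRNA against the empty vector (-1.21). Length-weighted, none of these overexpression ratios reached 2-fold.

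The 17 other long noncoding RNAs gave 12 that could be compared with the AUF1 siRNA, none called, and a median of -0.04 that equals that of all genes. SNHG12 was highest at 0.47 and SNHG1 lowest at -0.48, both hosts of small nucleolar RNAs. JPX was called higher in all 5 overexpression comparisons, by 3.02 to 4.22. It stood at 10.7 scaled FPKM with the empty vector, 67.6 with the control siRNA and 91.5 with the AUF1 siRNA, so the empty vector library was the one apart. DANCR was called higher with p40, at 1.99. Length-weighted, DANCR with p40 was under 2-fold, at 0.96, and the JPX ratios stayed past it, at 1.77 to 2.24.

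The genes whose levels followed NEAT1 most closely over the 8 libraries, out of 10207, were ZBTB3, a zinc finger protein (Pearson r = 0.96), RNF10, a ubiquitin ligase (0.94), MPDU1 (0.93), SASH1 (0.93) and CYTH3 (0.92). ZBTB3 ran from 3.09 scaled FPKM with the control siRNA to 20.2 with the AUF1 siRNA, and RNF10 from 24.0 with the control siRNA to 143.7 with p40. For MALAT1 they were UBLCP1 (0.98), MIOS (0.96), OSBPL11 (0.96), PUS7L (0.96) and SP1, a general transcription factor (0.95). UBLCP1 ran from 5.96 with the AUF1 siRNA to 9.97 with the control siRNA. These are the highest of very many correlations over 8 libraries that share their scaling, and they are given as a description only.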

How the data were processed

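The deposited tables give FPKM per transcript with a lower and an upper bound, a status and a coverage (signal, estimated read depth), per the file headers. TopHat2 2.0.6, Cufflinks 2.0.2, Cuffdiff and hg19 are named per the submitters' processing notes. The annotation release, strand and read numbers are not given in the sources used here, and depth is unknown. RNA input was 100 ng, amplified with and without poly(A), per the labels' protocols.

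Transcripts took gene symbols from GENCODE release 29. An assembled transcript was placed with a gene when its cluster held Ensembl transcripts of 300 nt or more of 1 gene only. FPKM was summed per gene and divided by median-of-ratios factors taken over the 13477 genes that reached 1 FPKM in every library. Ratios used a pseudocount of 1 FPKM, which understates changes of low genes. All steps ran in Python 3.11.15 with pandas 2.3.3 and were tested on simulated data.

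Members and lists were chosen with earlier results of these data known. Named were all members, up to 4 annotated transcripts each of highest mean FPKM, list genes past 2-fold or otherwise the highest and lowest, and 5 genes most like NEAT1 and MALAT1. DLK1, MEG8, KCNQ1 and the genes beside NEAT1 and MALAT1, and assembled or overlapping transcripts, were named after their values were seen. TAF15, of the paraspeckle list, was not analysed here. Of 12 other processing settings tried, 1, annotated transcripts only, was chosen after seeing the data. The values of 2 listed genes are not reported here.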

Additional observations from a re-analysis of the deposited data

How the results depend on the processing

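No paired analysis was possible because each group held 1 library. Leaving out a replicate was likewise not possible. Over 335 ratios under the alternatives of the 5 RNAs that met the level minimum, which leaves out MEG3, 307 kept their sign and 4 passed 2-fold, all of HOTAIR. Members past 2-fold became 1 with the AUF1 siRNA for a minimum mean of 1 and for no filter on low values (MEG3), and for annotated transcripts only (HOTAIR). HOTAIR also made it 1 with p40 for annotated transcripts only, with p37 without LOWDATA transcripts, and with all isoforms against the other control library, at 1.02. All other counts of members stayed at 0.

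Genes past 2-fold are given in the order AUF1 siRNA, p37, p40, p42, p45 and all isoforms. A pseudocount of 5 gave 854, 315, 391, 324, 444 and 325. A minimum mean of 1 gave 3047, 1187, 1434, 1194, 1759 and 1287, a minimum of 20 gave 411, 200, 252, 209, 278 and 221, and no filter gave 5106, 2498, 2895, 2474, 3418 and 2771. Length weighting gave 472, 121, 171, 127, 208 and 117. Transcripts of every length gave 903 with p37 and 913 with p42. The filters change how many genes are compared, and for the others the cause was not tested. Scaling to the 75th percentile moved the median of all genes by 0.13 with the AUF1 siRNA, and FPKM as deposited moved it by -0.11 with p45. Depth is unknown, and what it limits was not tested. MEG3 lay under the level minimum, and NORAD and KCNQ1OT1 were covered in part.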
